A study of Mus musculus with 12 samples.

Results

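The fatty acid desaturases and elongases examined here are the 9 genes Scd1, Scd2, Fads1, Fads2, Elovl1, Elovl2, Elovl3, Elovl5 and Elovl6, followed across mouse liver libraries of 3 groups. They were taken as a list of named enzymes with no threshold on a measured value, a list chosen with earlier results of these data known, and are 9 of the 56065 genes listed in the deposited tables. All 9 had reads in every one of the 12 libraries, and all 9 were among the 13631 genes that passed the filter on low counts.

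Desaturases place double bonds into fatty acids bound to coenzyme A in the membrane of the endoplasmic reticulum, drawing electrons through cytochrome b5 and its reductase. Elongases catalyse the first and rate-limiting step of a cycle that lengthens a fatty acid chain, which is completed by a ketoreductase, a dehydratase and an enoyl reductase. Scd1 and Scd2 turn saturated into monounsaturated fatty acids, and Elovl6 lengthens palmitate to stearate, the substrate from which Scd1 makes oleate, the main fatty acid of liver triglyceride. Fads2 and Fads1 desaturate and Elovl5 and Elovl2 lengthen the essential fatty acids of the diet on the way to arachidonic and docosahexaenoic acid, while Elovl1 and Elovl3 act on saturated and monounsaturated chains of very long length. In liver, Scd1 and Elovl6 are known targets of the insulin-driven factor SREBP-1c (Srebf1), of the carbohydrate sensor ChREBP (Mlxipl) and of the oxysterol receptor LXR, and polyunsaturated fatty acids lower the activity of SREBP-1c.

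Promoter windows show which sequence of this family lies before the start of transcription of the only member that passed the test below, Elovl6, and, for contrast, of a polyunsaturated fatty acid elongase and a desaturase. RefSeq's table for GRCm38.p6 held 7 windows for 5 of the 9 members, Elovl1, Elovl2, Elovl5, Elovl6 and Fads2. The 250 bases before the start of Elovl6 (chr3:129532136-129532385, plus strand), Elovl5 (chr9:77917115-77917364, plus strand) and Fads2 (chr19:10101504-10101753, minus strand) are given 5′ to 3′ on the gene's strand, with capitals marking every match to 1 of 6 motifs searched on both strands.
Elovl6: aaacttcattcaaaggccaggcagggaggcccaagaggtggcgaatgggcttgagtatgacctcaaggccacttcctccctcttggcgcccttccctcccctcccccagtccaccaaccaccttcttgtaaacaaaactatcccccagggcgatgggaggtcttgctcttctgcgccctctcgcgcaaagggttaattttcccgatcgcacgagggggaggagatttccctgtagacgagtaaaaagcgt
Elovl5: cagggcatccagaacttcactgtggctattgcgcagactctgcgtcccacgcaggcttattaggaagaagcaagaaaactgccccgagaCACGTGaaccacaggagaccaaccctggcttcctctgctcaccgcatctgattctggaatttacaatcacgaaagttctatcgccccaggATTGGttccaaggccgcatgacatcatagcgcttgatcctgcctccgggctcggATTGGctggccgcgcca
Fads2: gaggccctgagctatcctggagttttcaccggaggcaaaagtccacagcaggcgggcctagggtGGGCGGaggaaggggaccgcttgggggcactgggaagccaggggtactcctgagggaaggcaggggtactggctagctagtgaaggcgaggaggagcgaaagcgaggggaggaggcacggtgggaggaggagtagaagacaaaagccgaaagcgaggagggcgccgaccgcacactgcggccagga
The motifs were CCAAT (the NF-Y box), CACGTG (an E-box), GGGCGG (the GC box of Sp1), TCACNCCAC (a sterol element core), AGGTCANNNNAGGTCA (a DR4 repeat) and AGGTCANAGGTCA (a DR1 repeat). The Elovl5 window held the E-box in its upstream part and CCAAT 2 times, both times on the opposite strand and so printed as ATTGG. The Fads2 window held 1 GC box and the Elovl6 window no match, which says only that these letters are not in this window. Among all 32851 windows of this length, 33.8% held CCAAT, 6.02% CACGTG, 32.7% GGGCGG, 1.05% TCACNCCAC, 0.0152% the DR4 repeat and 0.0335% the DR1 repeat.

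The livers came from AhR-floxed mice, which carry a conditional allele of the aryl hydrocarbon receptor, and no Cre driver is named in the labels. All mice started their diets at 8 weeks of age and stayed on them for 20 weeks. The diet of CD supplied 10 kcal% as fat, with sucrose matched to the other diet. Injections are labelled for the other groups and not mentioned for CD. MD was fed 2% cholesterol in a chow with 40 kcal% from fat and 20 kcal% from fructose, used to model metabolic dysfunction-associated steatohepatitis (MASH), with vehicle (0.2% DMSO) given intraperitoneally 3 times a week. MD+CA received the same diet with 12 mg/kg cinnabarinic acid, a tryptophan metabolite that activates the aryl hydrocarbon receptor, on the same schedule. Comparisons with CD therefore join the diet with the labelled injections, and MD+CA vs CD also with cinnabarinic acid. Within such a comparison these cannot be told apart. Each group had 4 libraries. The labels do not state that the 4 came from separate mice or at what time of day livers were taken, so p-values measure the spread between these libraries.

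Libraries held between 9089586 and 14492587 assigned reads. All 6 hepatocyte markers were present in all 12 libraries, with a summed level of 55303 to 72469 CPM (TMM-scaled read counts relative to depth) in CD, 38068 to 66365 in MD and 48844 to 67572 in MD+CA. The mice are labelled male, but Xist, expressed from the inactive X chromosome, had 5122 to 12865 reads in all 12 libraries and Ddx3y, Kdm5d, Uty and Eif2s3y of the Y chromosome had 0 reads in all 12. The measurement goes against the label, which bears on Elovl3, a gene known for higher expression in male than in female liver. MD replicates 1 and 2 had the largest shares of reads from the mitochondrial genome, 10.7 and 17.5%. The other 10 libraries held 4.97 to 9.37%, with MD replicate 4 the highest of them. In MD+CA, 8 of 10 clock genes driven by Bmal1 fell against MD, where 2.71% of all genes passed. The mean log2 CPM of these 10 was 2.43 to 4.16 in MD+CA against 5.35 to 5.72 in MD and 4.64 to 5.40 in CD. The 8 Kupffer cell markers, those of the liver's resident macrophages, summed to 339.5 to 710.0 CPM in MD+CA, 160.2 to 274.7 in MD and 206.6 to 260.9 in CD. Results below are given with these values where they move together.

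Per transcript length, the family spanned 3 orders of level. Levels of different genes are compared in TPM, transcript abundance relative to length and depth, summed over the transcripts of a gene. Scd1 had the highest median of the 12 libraries, 970.7 TPM (194.8 to 3492), and lay above Elovl5, the next gene, in 11 of the 12 libraries. Elovl5 (449.8 TPM) and Fads2 (434.1 TPM) followed and could not be ordered, with Elovl5 higher in 6 of 12 libraries. Fads1 (162.7 TPM) and Elovl2 (121.4 TPM) were also close, with Fads1 higher in 7 of 12. Elovl6 (24.6 TPM, 10.9 to 95.3) exceeded Elovl1 (11.7 TPM, 7.29 to 17.2) in 10 libraries. Scd2 (1.07 TPM) and Elovl3 (1.05 TPM) were the lowest, and Scd2 exceeded Elovl3 in 5 libraries. The steps from Fads2 to Fads1, from Elovl2 to Elovl6 and from Elovl1 to Scd2 held in all 12 libraries.

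**Figure D1:**
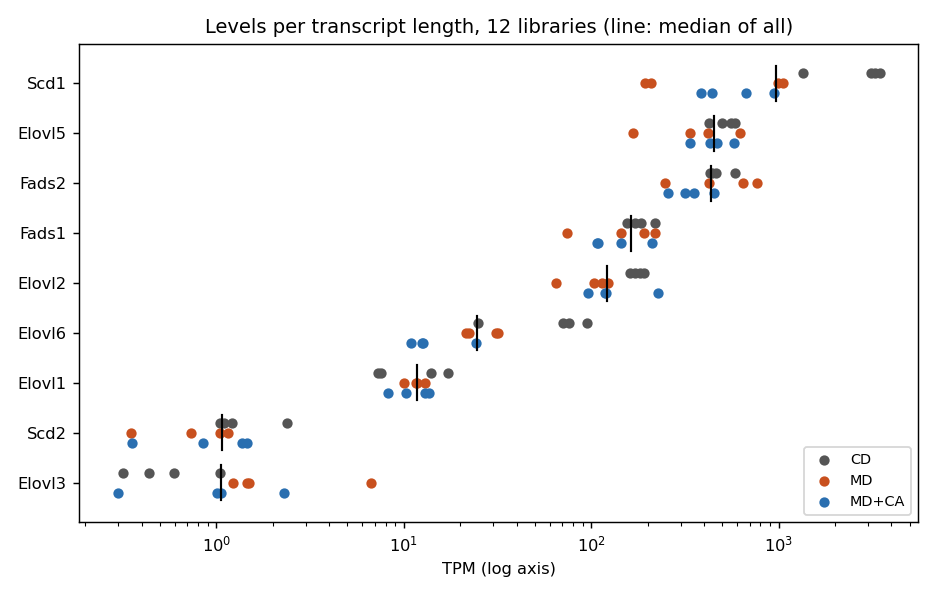
Level of each gene in TPM (log axis) in the 12 libraries, coloured by group, with a line at the median of all 12. Scd1 spans the widest range among the abundant genes, from 194.8 TPM in an MD library to 3492 in a CD library, while Elovl5, Fads2, Fads1 and Elovl2 form a band between 65.2 and 768.4 TPM.

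Scd1 alone made up most of the family's message in CD and less in MD and MD+CA. Its share of the summed TPM of the 9 genes was 67.5, 73.6, 50.2 and 66.4% in CD replicates 1 to 4, 16.7, 24.8, 40.6 and 37.8% in MD, with 30.3, 38.3, 31.4 and 38.7% in MD+CA. The shares of the 8 diet-fed libraries all lay below those of the 4 CD libraries. As a share of all assigned reads, Scd1 took 1.05% ± 0.358 in CD (SD, n = 4), 0.257% ± 0.191 in MD, with 0.226% ± 0.0806 in MD+CA. Ranked by TPM among all genes it stood at place 34 to 92 in CD, 109 to 496 in MD and 120 to 296 in MD+CA. Without Scd1, the other 8 genes summed to 1432 ± 175 TPM in CD, 1209 ± 503 in MD, with 1110 ± 281 in MD+CA, and these ranges overlapped.

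Counting members past an adjusted p of 0.05 in edgeR's quasi-likelihood test gave few calls. In MD vs CD 0 of 9 members passed, against 0.088% of all genes tested. Between MD+CA and MD 0 of 9 passed, against 2.71% of all genes. Elovl6 was the 1 member that passed in MD+CA vs CD, where 0.528% of all genes did. It was also the 1 member that passed in the contrast of both diet groups against CD, where 0.117% did. At an unadjusted p under 0.05 the members numbered 4 in MD vs CD (19.9% of all genes), 3 in MD+CA vs MD (23.2%), 2 in MD+CA vs CD (10.5%) and 4 for both diet groups (11.5%). DESeq2 called 3 members (Scd1, Elovl3 and Elovl6) in MD vs CD, 1 (Elovl6) in MD+CA vs MD and 2 (Scd1 and Elovl6) in each of the other comparisons. It called 4.8, 8.08, 1.97 and 1.21% of all genes in the 4 comparisons. With limma voom the members called numbered 1 (Scd1), 0, 2 and 2 (Scd1 and Elovl6), against 2.74, 2.99, 1.4 and 0.565% of all genes. Log2 fold changes were below 0 for 6, 6, 7 and 7 of the 9 members, against 46.3, 50.3, 48 and 46.5% of all genes. The members' medians were -0.22, -0.18, -0.36 and -0.21, beside 0.04, 0.00, 0.02 and 0.03 over all genes. CD enters 3 of the 4 comparisons and MD enters 3, so their values are not independent of each other.

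**Figure D2:**
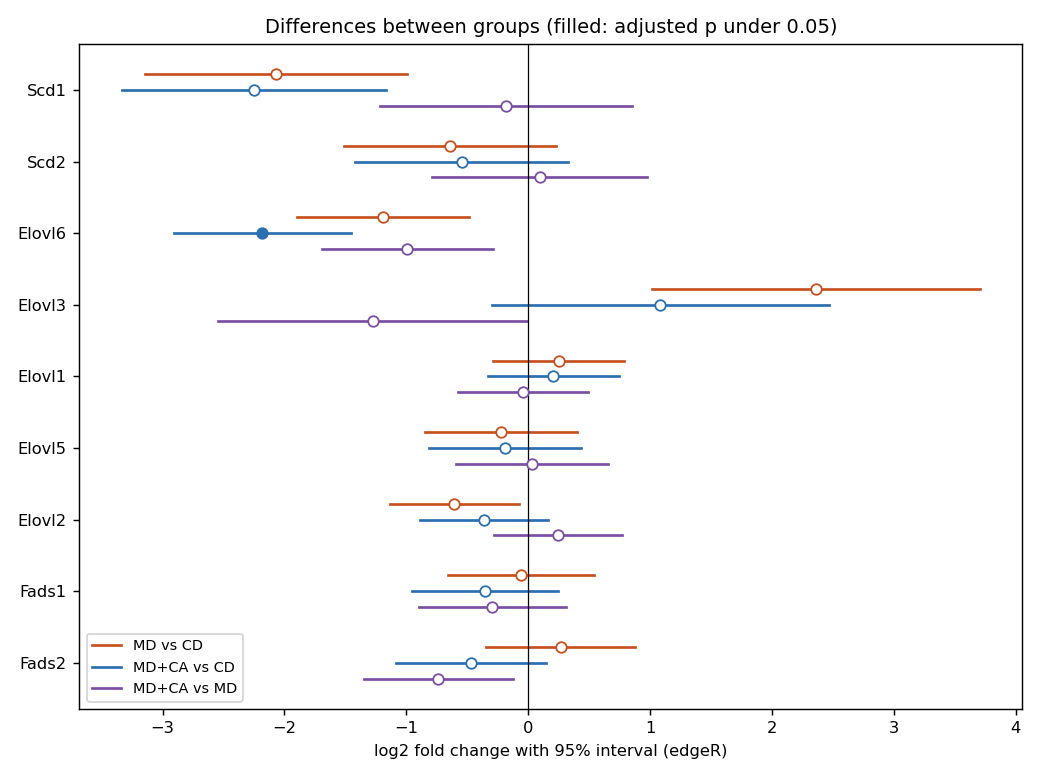
Log2 fold change of each member in MD vs CD, MD+CA vs CD and MD+CA vs MD, with 95% intervals from edgeR. The filled point, Elovl6 in MD+CA vs CD at -2.18, is the only one with an adjusted p under 0.05, and both Scd1 values against CD lie near -2 with intervals from -3.33 to -0.99.

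Scd1, the main delta-9 desaturase of liver, was the most abundant member and had lower counts in all 8 diet-fed libraries than in any CD library. TMM-scaled levels were 10668, 14346, 5339 and 12166 CPM in CD replicates 1 to 4. In MD they were 964, 887, 3856 and 4432 CPM. In MD+CA they were 1615, 2469, 1738 and 3114 CPM. The MD libraries thus split into a low and a high pair, and CD replicate 3 was the lowest of its group. Group means were 10630 ± 3837 (SD, n = 4) in CD, 2535 ± 1874 in MD, with 2234 ± 697 in MD+CA. For libraries that do not overlap, the share of genes lower in both diet groups than in CD was 0.668%, and Scd1 was the only member among them. The log2 fold change was -2.07 (SE 0.50, adjusted p = 0.104) in MD vs CD, -2.25 (SE 0.51, adjusted p = 0.0567) in MD+CA vs CD and -2.16 (SE 0.40, adjusted p = 0.0564) for both groups against CD, so none passed. These are tissue libraries, in which fewer cells of a type and less RNA per cell cannot be told apart.

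MD+CA and MD did not separate for Scd1, with a log2 fold change of -0.18 (95% interval -1.21 to 0.85, adjusted p = 0.851). That interval leaves room for a level 2 fold lower as well as for one nearly as much higher. Both low MD libraries, replicates 1 and 2, were those with the largest share of mitochondrially encoded reads, 10.7 and 17.5%. Their mean log2 CPM of 10 immediate early genes, which respond to stress within minutes, was 6.48 and 6.92, against 5.48 and 4.06 in MD replicates 3 and 4 and 2.47 to 4.63 in CD. MD replicate 4, with the next largest mitochondrial share at 9.37%, had the highest Scd1 of MD, 4432 CPM. Fragment length was read as the median bases by which the effective length of long transcripts falls short of their full length. It was 230 and 221 bases in MD replicates 1 and 2 and 227 in MD+CA replicate 1, the lowest of its group for Scd1 (1615 CPM). All other libraries, MD replicate 4 (253) among them, had 246 to 280 bases. The part of these RNA measures in the Scd1 values was not tested. Without MD replicates 1 and 2 the log2 fold change in MD vs CD was -1.36 (adjusted p = 0.442), and in MD+CA vs MD it was -0.89 (adjusted p = 0.369). MD+CA vs CD does not use MD values for its mean, and Scd1 passed there with the spread estimated without that pair (-2.25, adjusted p = 0.0171). Leaving out that pair was tried only once the data had been seen. Scd1 also passed with DESeq2 (adjusted p = 0.000292) and limma voom (adjusted p = 0.0440). Of 11 alternative settings Scd1 passed in 7. Of 12 edgeR fits without a single library it passed in 1, with adjusted p up to 0.173.

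Scd2, the isoform of brain, skin and developing liver, was near the limit of detection, with 13 to 97 reads a library. It stood at 3.72, 9.83, 4.47 and 4.73 CPM in CD, 3.50, 1.63, 4.66 and 4.62 in MD, with 5.14, 3.19, 1.65 and 5.36 in MD+CA. The groups overlapped, and the log2 fold change was -0.64 (SE 0.41, adjusted p = 0.384) in MD vs CD and 0.09 (SE 0.41, adjusted p = 0.913) in MD+CA vs MD. In TPM, Scd1 exceeded Scd2 by 1230 to 2947 times in CD, 286 to 1011 times in MD and 322 to 1085 times in MD+CA. The Scd genes share sequence, so the division of shared reads among them is an estimate of the quantification.

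Elovl6, which makes stearate from palmitate, was the member whose level passed the test. It stood at 240.1, 367.3, 112.3 and 390.1 CPM in CD replicates 1 to 4, at 104.8, 111.3, 139.3 and 130.7 in MD and at 46.7, 50.6, 56.7 and 90.4 in MD+CA. All 4 MD+CA libraries lay below all 4 MD and all 4 CD libraries, as they did for 5.21% of all genes against MD and 2.92% against CD, while CD replicate 3 lay among the MD libraries. Means were 277.5 ± 128 CPM in CD (SD, n = 4), 121.5 ± 16.2 in MD, with 61.1 ± 20.0 in MD+CA. Elovl6 fell 4.54 fold in MD+CA vs CD (log2 fold change -2.18, SE 0.34, adjusted p = 0.0119). It fell 3.22 fold in both diet groups against CD (-1.69, SE 0.27, adjusted p = 0.0244). MD vs CD (-1.19, SE 0.33, adjusted p = 0.116) and MD+CA vs MD (-0.99, SE 0.33, adjusted p = 0.0995) did not pass, though both 95% intervals, -1.89 to -0.49 and -1.70 to -0.29, lay below 0. DESeq2 called both, at adjusted p of 0.0152 and 0.0437.

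The Elovl6 call in MD+CA vs CD held when each of the 12 libraries was left out in turn, with log2 fold changes from -2.44 to -1.97 and adjusted p from 0.00238 to 0.0495. The call for both diet groups held in 4 of these 12 fits and reached an adjusted p of 0.194 without CD replicate 2. It was lost without each of CD replicates 1, 2 and 4, MD replicates 1, 2 and 4 and MD+CA replicates 1 and 2. Against CD, 4 of the 10 clock genes driven by Bmal1 fell in MD+CA and 3 of 8 Kupffer cell markers rose (Marco, C1qb and Cd5l). Of all genes, 0.528% passed there. All 10 clock genes were below 0, 8 of them at an unadjusted p under 0.05 in edgeR. All 8 Kupffer cell markers were above 0 at an unadjusted p under 0.05, which 10.5% of all genes reached in either direction. The part of both lists in the Elovl6 result was not tested. Of 6 fat cell markers, Adipoq, Plin1 and Cfd were found mainly in 3 libraries of different groups. Car3, another of the 6, was present in all 12 libraries at 334.1 to 3041 CPM and was highest in MD replicate 1. MD+CA replicate 4, the highest of its group for Elovl6, held Adipoq (7.09 CPM, 0 in 7 of the 12 libraries), Plin1 (5.36 CPM) and Cfd (3.63 CPM). CD replicate 4, the highest of all for Elovl6, held 0.97, 0.76 and 4.03 CPM of the same genes, and MD replicate 3, the highest of MD, 1.5, 1.13 and 0.83 CPM. Without MD+CA replicate 4 Elovl6 was at -2.44 (adjusted p = 0.00870). The part of fat cell RNA in the Elovl6 values was not tested.

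**Figure D3:**
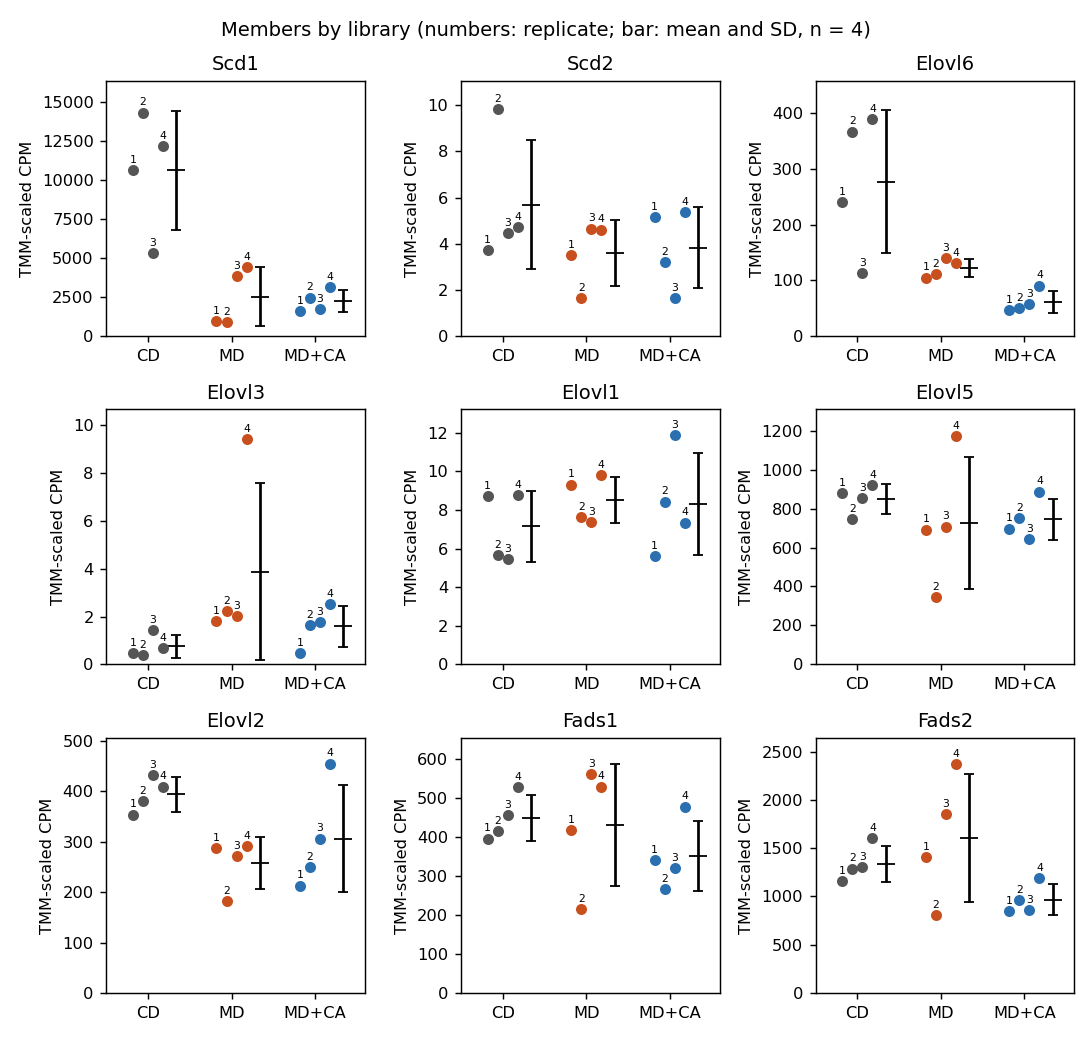
TMM-scaled CPM of each of the 9 members in every library, numbered by replicate, with the mean and SD of each group (n = 4) beside the points. For Elovl6 the 4 MD+CA libraries, 46.7 to 90.4 CPM, sit below all others, and for Scd1 all 8 diet-fed libraries, 887 to 4432 CPM, sit below the lowest CD library at 5339.

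Scd1 and Elovl6, which act in sequence, were lowest in different libraries. Their Pearson r of log2 CPM over the 12 libraries was 0.78, a description of libraries that share group and depth. The TPM ratio of Scd1 to Elovl6 was 34.3 to 54.1 in CD and 34.7 to 53.4 in MD+CA. In MD it was 9.75 and 8.75 in replicates 1 and 2 and 31.8 and 33.4 in replicates 3 and 4. The low pair again consists of both libraries with the largest mitochondrial shares, and the other 10 libraries lay between 31.8 and 54.1. Among those 10 was MD replicate 4, with a mitochondrial share of 9.37% and a ratio of 33.4. Between MD+CA and CD the fitted factors were 4.76 fold for Scd1, which did not pass, and 4.54 fold for Elovl6.

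**Figure D4:**
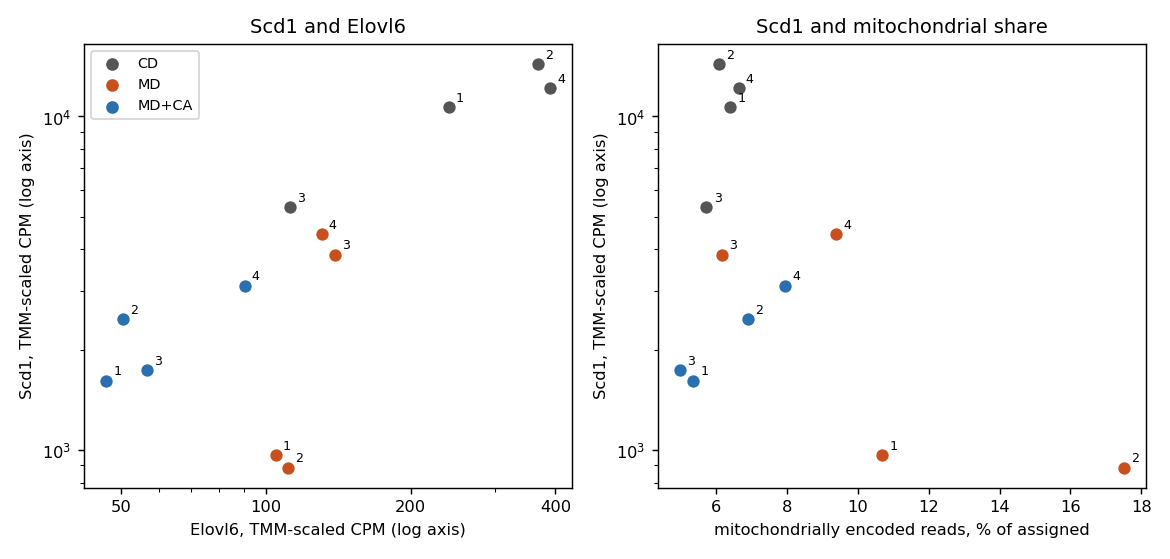
Scd1 in TMM-scaled CPM (log axis) against Elovl6 in TMM-scaled CPM (log axis, left) and against the share of mitochondrially encoded reads (right), 1 point a library, numbered by replicate. MD replicates 1 and 2 lie apart in both panels, with Scd1 at 964 and 887 CPM at mitochondrial shares of 10.7 and 17.5%.

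Elovl3, which lengthens saturated and monounsaturated chains and is known from brown fat and from male liver, was barely expressed, with 4 to 118 reads a library. It stood at 0.47, 0.41, 1.43 and 0.70 CPM in CD, 1.82, 2.24, 2.03 and 9.39 in MD, with 0.46, 1.64, 1.77 and 2.51 in MD+CA. All MD libraries lay above all CD libraries, as they did for 5.99% of all genes, and MD replicate 4 lay far above the other 3. The log2 fold change was 2.36 (SE 0.63, adjusted p = 0.115) in MD vs CD and -1.28 (SE 0.60, adjusted p = 0.213) in MD+CA vs MD. Without MD replicate 4 these values were 1.43 (adjusted p = 0.202) and -0.34 (adjusted p = 0.737). Elovl3 is also known for a daily rhythm in liver, and its part in these values was not tested.

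Elovl1, the broadly expressed elongase of very long saturated chains, was low and even, with 56 to 133 reads a library. It stood at 8.71, 5.67, 5.46 and 8.76 CPM in CD, 9.32, 7.64, 7.36 and 9.79 in MD, with 5.60, 8.43, 11.9 and 7.35 in MD+CA. The groups overlapped in every comparison, with log2 fold changes of 0.25 (95% interval -0.29 to 0.78) in MD vs CD, 0.21 (-0.33 to 0.74) in MD+CA vs CD and -0.04 (-0.58 to 0.49) in MD+CA vs MD.

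Fads1 and Fads2, the delta-5 and delta-6 desaturases of polyunsaturated fatty acids, lie side by side in the genome and moved together across libraries (Pearson r of log2 CPM 0.85, n = 12). Fads2 stood at 1158, 1290, 1306 and 1605 CPM in CD, at 1411, 808, 1856 and 2370 in MD and at 852, 965, 861 and 1192 in MD+CA. Fads1 stood at 396.3, 415.0, 457.1 and 529.0 CPM in CD, at 418.3, 214.9, 561.3 and 529.6 in MD and at 340.7, 267.1, 321.0 and 478.2 in MD+CA. MD replicate 2 was the lowest of the 12 libraries for both genes, and the other 3 MD libraries overlapped with or exceeded CD. Neither gene passed in any comparison. For Fads2 the log2 fold change was 0.27 (SE 0.29, adjusted p = 0.622) in MD vs CD and -0.74 (SE 0.29, 95% interval -1.35 to -0.12, adjusted p = 0.147) in MD+CA vs MD. For Fads1 the values were -0.06 (SE 0.28, adjusted p = 0.925) and -0.29 (SE 0.28, adjusted p = 0.556).

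Fads2 exceeded Fads1 in TPM by 2.52 to 2.77 times in CD, by 2.93 to 3.99 times in MD and by 2.14 to 3.25 times in MD+CA. All 4 MD ratios lay above all 4 CD ratios, but how often ratios of other gene pairs separate in this way was not counted. In MD+CA, 3 of the 4 ratios (2.14 to 2.38) lay below every CD ratio, and replicate 2 (3.25) lay within the MD range. Without MD replicates 1 and 2, the Fads2 value in MD+CA vs MD was -1.13 (adjusted p = 0.0737) and the value in MD vs CD was 0.66 (adjusted p = 0.517).

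Elovl5 and Elovl2, the elongases of polyunsaturated fatty acids, showed small differences. Elovl5 stood at 877.7, 744.5, 852.4 and 920.0 CPM in CD, 691.4, 344.5, 707.0 and 1170 in MD, with 697.3, 751.4, 642.3 and 886.8 in MD+CA. MD held both the lowest and the highest of the 12 values, and no group was set apart from another. Its log2 fold change was -0.22 (95% interval -0.84 to 0.40) in MD vs CD and 0.03 (-0.59 to 0.65) in MD+CA vs MD. Elovl2, which acts on the longest intermediates before docosahexaenoic acid, stood at 353.7, 380.4, 431.6 and 409.3 CPM in CD, 288.1, 182.2, 272.2 and 291.0 in MD, with 213.1, 250.4, 306.3 and 454.8 in MD+CA. All 4 MD libraries lay below all CD libraries, which held for 7.12% of all genes, while MD+CA replicate 4 was the highest of the 12. The log2 fold change of Elovl2 was -0.61 (SE 0.25, adjusted p = 0.201) in MD vs CD, 0.25 (SE 0.25, adjusted p = 0.577) in MD+CA vs MD and -0.36 (SE 0.25, adjusted p = 0.721) in MD+CA vs CD.

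Against Elovl5, which overlapped between groups, Elovl6 was lowest in MD+CA. The TPM ratio of Elovl5 to Elovl6 was 8.19, 5.59, 20.0 and 5.82 in CD, 15.7, 7.49, 13.5 and 19.5 in MD, with 34.1, 37.3, 30.9 and 23.7 in MD+CA. All MD+CA ratios lay above all others, as Elovl6 itself was lower in all MD+CA libraries than in all others. How often ratios of other gene pairs separate in this way was not counted. CD replicate 3, low in Scd1 and Elovl6, had the highest ratio outside MD+CA. Over the 12 libraries Elovl5 and Elovl6 had a Pearson r of 0.25, and Elovl5 and Fads1 of 0.77.

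Most members were read from a single transcript. Scd1-201, Scd2-201, Fads2-201, Elovl5-201 and Elovl2-201 each held a median of at least 99.9% of their gene's TPM. Elovl6-201 held a median of 79.8% (62.7 to 90.3%) and Elovl6-205 12.7%, with overlapping shares in the 3 groups. For Fads1 the estimate moved between 2 protein-coding transcripts of nearly equal length. Fads1-201 held 61.2% ± 25.0 of Fads1 TPM in CD (SD, n = 4), 22.1% ± 23.6 in MD, with 52.2% ± 28.3 in MD+CA, and Fads1-202 held 35.8% ± 24.2, 76.2% ± 23.5 and 45.1% ± 30.1. The distance of MD from both other groups was larger than the SD within any group, and that between CD and MD+CA was smaller. Libraries overlapped all the same, with Fads1-201 at 38.4 to 83.4% in CD, 5.98 to 56.6% in MD and 10.7 to 73.3% in MD+CA, and no test was run on shares. Elovl1 reads were spread over 5 of its 7 listed transcripts at a median share of at least 5%.

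The 9 genes of fatty acid synthesis upstream of the family, which supply palmitate, were all below 0 in MD vs CD (median log2 fold change -1.13) and in MD+CA vs CD (median -1.49). In these comparisons 0 of 9 passed, where 0.088 and 0.528% of all genes did. At an unadjusted p under 0.05 in edgeR they numbered 6 and 7, all lower, beside 19.9 and 10.5% of all genes in either direction. Between MD+CA and MD 5 of 9 were below 0 and the median was -0.09. Acaca, which makes malonyl-CoA, was at -1.56 (SE 0.37, adjusted p = 0.104) and Acly, which makes cytosolic acetyl-CoA, at -1.67 (SE 0.42, adjusted p = 0.107) in MD vs CD. Thrsp, a lipogenic regulator, was at -2.02 (SE 0.45, adjusted p = 0.0549) and Acss2, acetyl-CoA synthetase, at -1.95 (SE 0.48, adjusted p = 0.0770) in MD+CA vs CD. Thrsp stood at 391.3, 503.6, 136.0 and 469.4 CPM in CD, 234.9, 199.9, 328.7 and 328.8 in MD, with 45.7, 85.7, 54.3 and 185.1 in MD+CA. CD replicate 3, low for Scd1 and Elovl6, was thus low for Thrsp too, and it was the lowest CD library for Acss2 (62.6 against 242.9 to 261.4 CPM) and for Fasn, fatty acid synthase (176.3 against 650.9 to 818.5 CPM).

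Of the partner enzymes of desaturation and elongation 0 of 10 passed in each comparison, where 0.088 to 2.71% of all genes did. Cyb5b, an outer mitochondrial cytochrome b5, was at -1.12 (SE 0.32, adjusted p = 0.117) in MD vs CD and 0.92 (SE 0.31, adjusted p = 0.105) in MD+CA vs MD. Tecr, the enoyl reductase that closes the elongation cycle, was at -0.60 (SE 0.21, adjusted p = 0.111) in MD+CA vs MD. Of the 6 other genes of the family, Elovl4 had 0 reads in all 12 libraries, Scd3, Scd4 and Elovl7 failed the filter, and Fads3 and Fads6 were tested and did not pass. Fads6 was the more abundant of the pair, at 75.0 to 122.8 CPM over all libraries.

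Acyl-CoA synthesis and phospholipid loading (8 genes) and peroxisomal shortening of very long polyunsaturated fatty acids (9 genes) had 0 calls in each comparison. Of all genes, 0.088 to 2.71% were called. Acsl4, which activates arachidonic acid, was at -0.92 (SE 0.26, adjusted p = 0.117) in MD vs CD. Lpcat3, which loads polyunsaturated chains into phospholipids, was at -0.72 (SE 0.20, adjusted p = 0.0584) in MD+CA vs MD. The peroxisomal thiolase Acaa1a was at -0.99 (SE 0.27, adjusted p = 0.0582) in MD+CA vs MD, and the fatty acyl transporter Abcd2 at -0.85 (SE 0.27, adjusted p = 0.131) in MD vs CD.

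**Figure D5:**
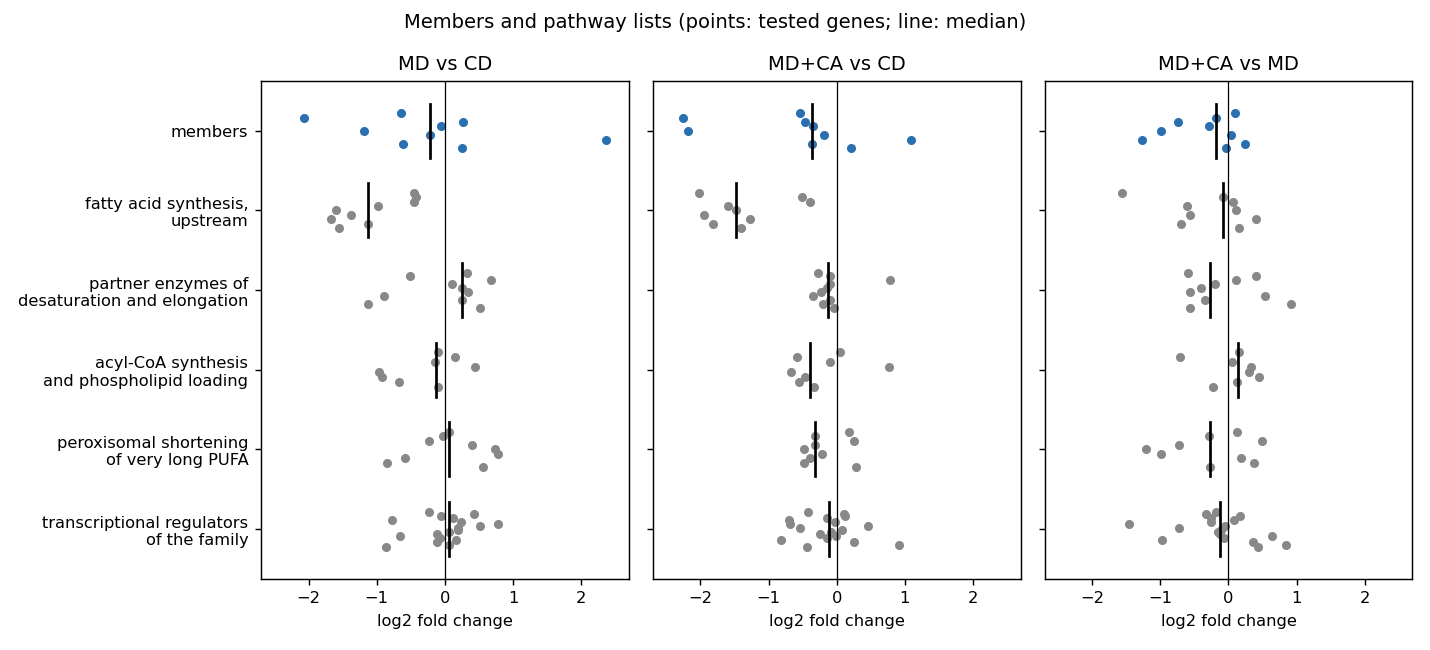
Log2 fold change of every tested gene of the family and of 5 related lists in 3 comparisons, with a line at each list's median. The list of fatty acid synthesis sits left of 0 in both comparisons with CD, at medians of -1.13 and -1.49, and at -0.09 in MD+CA vs MD, where the family's median is -0.18.

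Among 18 transcriptional regulators of the family 0 passed in each comparison, where 0.088 to 2.71% of all genes did. Srebf1 message averaged 121.9 ± 33.5 CPM in CD (SD, n = 4), 132.6 ± 46.2 in MD, with 110.5 ± 26.2 in MD+CA, and its libraries overlapped. Mlxipl averaged 496.6 ± 81.8, 557.6 ± 293 and 283.1 ± 37.4 CPM. Its MD+CA libraries (257.7 to 338.6 CPM) lay below all CD libraries (397.8 to 566.8), as they did for 2.92% of all genes. Its MD libraries ran from 312.2 to 946.6 CPM and overlapped with both other groups. These are message levels, whereas both factors are controlled in large part at the protein level. Scap, which escorts SREBP out of the endoplasmic reticulum, was at -0.78 (SE 0.25, adjusted p = 0.134) in MD vs CD. Insig2, which retains it there, was at 0.84 (SE 0.25, adjusted p = 0.0740) in MD+CA vs MD. Ppargc1b, a coactivator of SREBP-1c, was at -1.47 (SE 0.39, adjusted p = 0.0570) in MD+CA vs MD, with 67.8 CPM in MD replicate 2 against 18.2 to 23.3 in the other MD libraries.

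Target genes of the same factors outside the family gave 1 call. Abcg5, a sterol transporter and LXR target, fell in MD+CA vs MD (-1.13, SE 0.25, adjusted p = 0.0303), the 1 of 8 LXR targets that passed. It stood at 81.7, 134.3, 63.3 and 77.4 CPM in MD, with 37.5, 49.1, 27.2 and 48.9 in MD+CA, which did not overlap. Of all genes, 2.71% passed in this comparison and 5.21% were lower in MD+CA without overlap. Of 10 targets of PPARalpha, the fatty acid receptor, and 10 sterol-driven targets of SREBP-2, 0 passed in each comparison, where 0.088 to 2.71% of all genes did. The medians of both lists in MD vs CD were 0.18 and -0.48, and in MD+CA vs MD -0.54 and -0.10. CD replicate 3, low for Scd1 and Elovl6, had the highest mean log2 CPM of the PPARalpha targets in CD. It was 7.46, against 6.093 to 6.805 in the other CD libraries.

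The genes whose log2 CPM followed a member most closely over the 12 libraries are given as a description, ranked by Pearson r among protein-coding genes. For Elovl6 they were Gabbr2 (0.94), Acss2 (0.94), Pdk1 (0.93) and Mr1 (0.93). Acss2 also belongs to the list of fatty acid synthesis, and Pdk1 encodes a kinase that inhibits pyruvate dehydrogenase. Gabbr2, a GABA type B receptor subunit, stood at 39.6 to 80.4 CPM in CD, 34.5 to 39.1 in MD and 24.4 to 40.1 in MD+CA. Genes chosen for following a member over these libraries share its group differences by that choice, so no test of them is given on that ground. The Acss2 test above belongs to the list of fatty acid synthesis. For Scd1 the closest were Ctif (0.95), Cry2 (0.92), Ppm1a (0.92) and Samm50 (0.92), and the most opposed Fdxacb1 (-0.94), Arhgef19 (-0.92), Exoc4 (-0.91) and Mustn1 (-0.90). Ctif stood at 20.3 to 24.6 CPM in CD, 10.0 to 17.7 in MD and 12.2 to 17.0 in MD+CA, and like Scd1 was lowest in MD replicates 1 and 2.

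The other members had neighbours of their own. Fads1 was followed by Umps (0.96), Sar1b (0.94), Vdac1 (0.93) and Galm (0.93), and Fads2 by Anxa7 (0.93), Slc25a5 (0.92), Fgf1 (0.92) and Slc25a16 (0.90). Elovl5 was followed by Mmadhc (0.93), Rnf11 (0.92), Ptgr2 (0.91) and Ndfip2 (0.91), and Elovl2 by Atf6 (0.95), Ube2g1 (0.93) and Necap1 (0.92). For the low members the closest values were smaller, with Sema5b (0.90), Tram2, Pdzrn3 and Slc25a20 for Elovl3, Hspd1 (0.87), Tns3, Mcm10 and Zbtb44 for Scd2, and Usb1 (0.85), Ntaq1, Rps6ka4 and Orm3 for Elovl1. Sema5b stood at 0.10 to 0.45 CPM in CD, 1.61 to 10.0 in MD and 0.28 to 1.82 in MD+CA, and like Elovl3 was highest in MD replicate 4.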

How the data were processed

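The 12 libraries were made from poly(A) RNA of frozen liver, per the labels' protocols. Tools listed in the submitters' processing notes are Salmon 1.10.3, fastp and DESeq2, with build GRCm39. The deposited tables hold, per the file headers, the estimated count of reads that Salmon assigned to each of 147556 transcripts, not normalized. Deposited TPM values are relative to transcript effective length and library depth, per the file headers. Counts were summed per gene and rounded, and TPM summed per gene. CPM values are counts scaled by TMM. Genes were filtered with filterByExpr (minimum count 10) and fitted with edgeR 4.0.16 (quasi-likelihood, 3 group means, 9 residual degrees of freedom), and p-values were adjusted by Benjamini-Hochberg over all 13631 genes. Each SE is the fold change on the log2 scale over the root of its F value. Like genes were ranked by Pearson r of log2 CPM (prior count 2, average at least 1). The model was tested on simulated data. DESeq2 1.42.0, limma 3.58.1, R 4.3.3 and Python 3.11.15 were used.

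Members and lists were chosen with earlier results of these data known. Named besides the 9 members are genes past the threshold (at most 4 a list and comparison, otherwise at most 2 by smallest p), 4 like genes a member and 4 opposed to Scd1. Library-state and fat cell genes, Srebf1, Mlxipl, Fasn and Fads6 were named after their values were seen. Not every gene the rule takes is printed. Alternatives were other scalings (RLE and upper quartile), DESeq2, limma voom with sample weights, no filter, a transcript length offset, protein-coding genes only, only the groups compared, a replicate block and leaving out each library. Leaving out MD replicates 1 and 2, or mitochondrially encoded genes, was tried only once the data had been seen.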

Additional observations from a re-analysis of the deposited data

Results flagged for a closer look

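In groups of 4 libraries a single value was marked where its gap to the nearest library exceeded Dixon's limit as a share of the group's range, which chance gives in about 1 of 20 groups. The 9 members in 3 groups made 27 groups examined, so chance alone would mark about 1.35, and 2 were marked. Scd2 in CD replicate 2, at 9.83 CPM, lay apart from the other 3 CD libraries (3.72 to 4.73 CPM), with a gap of 0.834 of the range. Elovl3 in MD replicate 4, at 9.39 CPM, lay apart from the other 3 MD libraries (1.82 to 2.24 CPM), with a gap of 0.945 of the range. Both genes are the lowest of the family, at 97 and 118 reads in these libraries.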

How the results depend on the processing

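The Elovl6 value in MD+CA vs CD passed in all 11 other settings (-2.20 to -2.14) and in all 12 fits without a library. Members called in MD vs CD numbered 0, but 3 with DESeq2, 3 without the low-count filter and 1 with limma voom. For MD+CA vs MD they numbered 0, but 1 with DESeq2 and 1 without the filter. For MD+CA vs CD they numbered 1, but 2 with DESeq2, limma voom, no filter, protein-coding genes only, only the groups compared, the replicate block and without MD replicates 1 and 2. For both diet groups they numbered 1, but 2 with DESeq2, limma voom, no filter, protein-coding genes only and without mitochondrially encoded genes, and 0 without MD replicates 1 and 2, where Elovl6 was at -1.61 (adjusted p = 0.148). Leaving out 1 library gave 0, 0, 1 to 2 and 0 to 2 members. The cause of these shifts was not tested.

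Values that turned sign were all uncalled. For Fads1 in MD vs CD (-0.06) they were 0.001 with upper-quartile scaling, 0.088 with limma voom and 0.28 without MD replicates 1 and 2, for Elovl5 in MD vs CD (-0.22) 0.14 without that pair, and for Fads2 in both groups against CD (-0.10) 0.091 without it. In MD+CA vs MD, Elovl5 (0.03) was at -0.004 with upper-quartile scaling, -0.20 with limma voom and -0.33 without the pair, and Scd2 (0.09) at -0.20 with limma voom and -0.26 without the pair. Without single libraries the ranges were -0.22 to 0.16 for Fads1 and -0.55 to 0.012 for Elovl5 in MD vs CD, -0.025 to 0.35 for Elovl1 in MD+CA vs CD and -0.23 to 0.008 for Fads2 in both groups. In MD+CA vs MD they were -0.47 to 0.23 for Scd1, -0.14 to 0.33 for Scd2, -0.27 to 0.11 for Elovl1, -0.002 to 0.39 for Elovl2 and -0.20 to 0.36 for Elovl5.

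Same-numbered libraries correlated at -0.08 to 0.35, over 0.1 in 8 of 12 pairs, and 7 of 12 libraries correlated best with their own number. Pairs with different numbers overlapped with these, at -0.40 to 0.31. The matches by number are a hint from the data that numbers may be shared, but the labels name no shared source. Not every same-numbered pair was over 0.1 either, so the samples were not treated as paired. With the replicate block 2 members passed in MD+CA vs CD (Scd1 at -2.33, adjusted p = 0.0456), and the other counts stayed at 0, 0 and 1. Upper-quartile scaling moved the median of all genes in MD vs CD from 0.04 to 0.11. Scd2 and Elovl3, with 13 to 97 and 4 to 118 reads a library, are limited by depth.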
